A study of Mus musculus with 217 samples.

Results

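RiboTagEC mice carry an HA tag on the ribosomal protein Rpl22 in cells where the Cdh5 promoter has driven a tamoxifen-inducible Cre. Ribosomes of endothelial cells (ECs), and the mRNA on them, can then be pulled from a whole-tissue homogenate with an antibody against the tag. Described here are 10 transcripts best known from neutrophils, S100a8, S100a9, Retnlg, Csf3r, Cxcr2, Mmp8, Mmp9, Ngp, Camp and Ltf, in such translatomes of brain, lung and heart. They were chosen as named neutrophil genes and not by a threshold in these data, but with earlier results of these data known. They are 10 of the 52550 gene IDs in the deposited count tables. The question is where and when after endotoxin these transcripts change, and by how much.

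Every mouse was an adult C57BL/6J animal of genotype Cdh5CreERT2/+; Rpl22HA/+ that had been given tamoxifen by gavage at a young age. Age at tissue collection is not given in the labels. The 0 hr group is labelled as control, and the methods describe its injection as PBS. The other groups received bacterial lipopolysaccharide (LPS) at 10 mg/kg into the peritoneum and were collected 6, 24, 48, 72 or 168 hr later, after perfusion. Labels do not say that each library comes from its own mouse, and libraries of different tissues share a mouse according to their file names.

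The deposited files held 217 sequencing runs of 98 libraries, and runs of the same library were summed. Libraries with under 3% of reads on genes, 18 of them, were left out. The 80 kept libraries number 5, 5, 4, 6, 4 and 4 in brain, 4, 4, 2, 6, 4 and 4 in lung, and 5, 5, 4, 6, 4 and 4 in heart, in order of time. Depth, as counts on genes, lies between 284457 and 43417945 in kept libraries. Its median is 23645892 for brain, 11376798.5 for lung and 24082214 for heart. Levels are given as CPM, counts scaled to a library total of 1000000 counts on genes, so that 1 count is 3.52 CPM in the shallowest library, the 6 hr lung library replicate 4. The lung groups have the fewest counts and, at 24 hr, 2 libraries, so that a transcript near the floor in lung is read with less certainty than in brain or heart.

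Calls are from edgeR fits in each tissue with library series as a covariate, a Benjamini-Hochberg (BH) adjusted p below 0.05 taken over all genes tested in that fit: 19234 in brain, 17058 in lung and 16024 in heart. In heart Camp did not reach the filter for testing, and Cxcr2 did not reach it in the 0 hr fit of the 3 tissues. The ribosomes were pulled from unsorted tissue and the RNA of the whole homogenate was not analysed here, so enrichment of a transcript over its tissue is not given. In bulk RNA, fewer or more cells of a kind cannot be told apart from less or more of the RNA in each cell.

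Neutrophils mature in the bone marrow, where their granules are filled in sequence, with the primary granules first, the specific granules next and the gelatinase granules last. After endotoxin they leave the marrow under granulocyte colony-stimulating factor (Csf3), follow CXC chemokines through Cxcr2, and adhere to activated endothelium. The lung capillaries hold many of them even in health, while the vessels of the brain admit few.

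**Figure D1:**
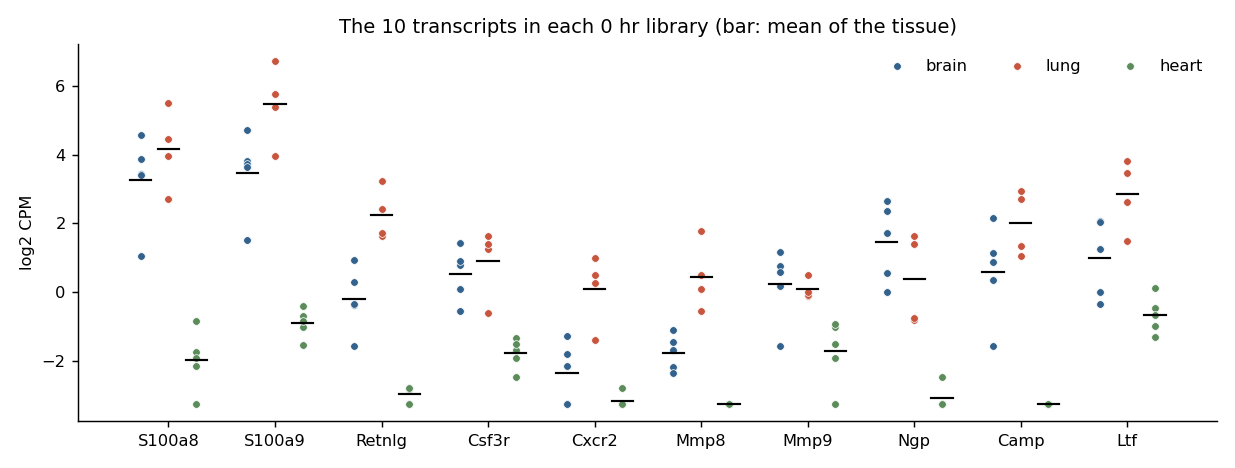
CPM of the 10 transcripts in each kept 0 hr library of brain, lung and heart, on a log2 scale.

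Some libraries stand apart and are named before any result. By file names the 6 hr libraries brain replicate 6, heart replicate 5 and lung replicate 4 come from the same mouse. The brain and heart libraries are low for early LPS-response transcripts. The lung library, where 1 count is 3.52 CPM, is low for Lcn2 and not for Cxcl1. Lcn2 reads 368.5 CPM in that brain library, where the 6 hr median is 5929.2 and the highest 0 hr library 45.1 CPM. It reads 55.7 CPM in that heart library (6 hr median 3970.0, highest at 0 hr 21.6 CPM) and 17.6 CPM in that lung library (537.1 and 52.4 CPM). Cxcl1 is at 1.67 and 4.8 CPM in those brain and heart libraries, within the 0 hr ranges, and at 14.1 CPM in lung, above the highest 0 hr library at 8.18 CPM. The 72 hr heart library replicate 1 holds 15.2 CPM of Lcn2, within the 0 hr range, while the brain and lung libraries of its mouse hold 1145.6 and 175.3 CPM. These 4 are called low-response libraries below, the lung library by its Lcn2 alone. Whether they carry the right time and treatment labels could not be checked, so the 6 hr and the 72 hr heart values hold only if they do.

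In the 6 hr lung libraries replicates 1, 2 and 4, only 6.93%, 8.12% and 3.4% of reads fall on genes, against 33.9% in replicate 3. Their endothelial marker sums are also low, 1481.6, 1501 and 246.1 CPM against 11412.9 CPM. The 48 hr lung library replicate 1 has 9.27% of reads on genes and an endothelial sum of 3033.4 CPM. The 48 hr libraries split in LPS response. Brain replicates 1, 2 and 4 hold 1310.6, 433.5 and 10680.4 CPM of Lcn2 and 2.12, 0.0495 and 229.4 CPM of Csf3, and replicates 3, 6 and 7 hold 31147.2, 26376.8 and 29042.2 CPM of Lcn2 and 3312.7, 2383.1 and 2764.0 CPM of Csf3. Heart replicates 1, 2 and 4 hold 1020.1, 746.0 and 3513.8 CPM of Lcn2, against 13438.7 CPM or more in the others, and lung replicates 1 and 2 hold 82.3 and 150.1 CPM, against 1271.5 CPM or more. By Csf3 lung replicate 4 is low as well. Lung replicates 1, 2 and 4 hold 0.2, 2.24 and 7.56 CPM of Csf3, and replicates 3, 6 and 7 hold 271.9, 387.1 and 207.1 CPM. No fit was made without these 48 hr libraries as a group. The fits that leave out 1 library, used below, leave out no 48 hr library of any tissue. Results below use all 80 libraries, and counts of calls without the low-response libraries, or without those under 10% of reads on genes, are given further below.

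The 18 libraries left out are all from the same series of file names and have 1.73% to 2.75% of reads on genes. Each of them detects between 0 and 4 of the 10 transcripts.

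The EC label was compared with marker sums at 0 hr. Endothelial markers (12 genes) sum to 2361.2, 3093 and 4998.6 CPM in brain (lowest, median, highest), with Cldn5 the largest. In lung the same sums are 11130.4, 12138 and 15608.3 CPM, with Egfl7 the largest, and in heart 11829.1, 12211 and 12810.6 CPM, with Pecam1 the largest. Markers of the tissue cells are present too. Lung parenchymal genes sum to 6619.8, 7873.1 and 9228.1 CPM in lung, mostly Sftpc, and heart parenchymal genes to 3994.6, 4865.5 and 8458.1 CPM in heart, mostly Mb. Tissue-cell markers are present in the brain libraries as well. Whether these transcripts come from ECs or from other cells was not tested.

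S100a8 and S100a9 lie near each other on chromosome 3 in mm10, S100a8 at 90668978 to 90670035 on the plus strand and S100a9 at 90692632 to 90695721 on the minus strand. Mmp8, Ngp, Camp and Ltf are on chromosome 9, and Camp is the only gene of those on the minus strand. No exon of any of the 10 genes overlaps an exon of another gene. Exonic length runs from 522 bases for S100a9 to 3609 bases for Csf3r.

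Promoter sequence from RefSeq, build GRCm38.p6, was taken from 250 bases before to 50 bases after the RefSeq start of each gene. Mmp9 has no entry. The RefSeq start can differ from the coordinates above, as it does for S100a8. The letters TTGCNNAA (TTNNGCAA on the other strand), as bound by C/EBP factors, occur in 5 of the 9 promoters, those of Ltf, Mmp8, Ngp, Retnlg and S100a9, and in 10.8% of 32851 promoters. GAGGAAG on either strand, as bound by PU.1, occurs in 3 of 9, Csf3r, Mmp8 and S100a8, against 13.6% of all. TATAAA on the strand of the gene occurs in 2 of 9, S100a8 and S100a9, against 8.32% of all. A match describes the letters only, and binding was not tested. The sequences below are S100a8 (chr3:90668821-90669120, plus strand), S100a9 (chr3:90695672-90695971, minus strand), Ngp (chr9:110419558-110419857, plus strand) and Mmp8 (chr9:7558179-7558478, plus strand), with matches in capitals.
S100a8: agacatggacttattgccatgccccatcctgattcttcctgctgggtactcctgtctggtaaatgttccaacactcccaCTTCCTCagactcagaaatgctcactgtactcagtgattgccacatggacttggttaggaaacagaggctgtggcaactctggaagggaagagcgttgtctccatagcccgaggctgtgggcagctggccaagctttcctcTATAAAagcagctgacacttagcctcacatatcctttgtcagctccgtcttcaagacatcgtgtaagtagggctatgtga
S100a9: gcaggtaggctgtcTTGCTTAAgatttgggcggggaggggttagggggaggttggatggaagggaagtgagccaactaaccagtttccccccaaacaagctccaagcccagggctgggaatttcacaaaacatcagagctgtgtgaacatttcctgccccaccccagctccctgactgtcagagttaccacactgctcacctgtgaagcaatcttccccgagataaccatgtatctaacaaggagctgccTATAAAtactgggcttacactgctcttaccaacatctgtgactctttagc
Ngp: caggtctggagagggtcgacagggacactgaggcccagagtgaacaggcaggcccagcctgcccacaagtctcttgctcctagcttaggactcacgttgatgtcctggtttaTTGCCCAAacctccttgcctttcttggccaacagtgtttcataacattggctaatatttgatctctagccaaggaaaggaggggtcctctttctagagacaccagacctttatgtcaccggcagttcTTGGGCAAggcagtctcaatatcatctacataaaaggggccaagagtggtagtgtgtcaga
Mmp8: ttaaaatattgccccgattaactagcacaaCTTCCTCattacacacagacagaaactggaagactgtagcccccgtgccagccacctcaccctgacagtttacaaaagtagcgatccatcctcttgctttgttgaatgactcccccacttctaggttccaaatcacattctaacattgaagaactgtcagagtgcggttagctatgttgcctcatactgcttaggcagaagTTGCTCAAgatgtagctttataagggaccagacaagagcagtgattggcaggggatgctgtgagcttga

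At 0 hr the 3 tissues differ widely. S100a8, a subunit of the calcium-binding cytosolic complex calprotectin, reads 1.94, 10.8, 23.7, 14.4 and 10.4 CPM in the 5 brain libraries, 21.8, 15.5, 45.3 and 6.38 CPM in the 4 lung libraries and 0, 0.195, 0.158, 0.45 and 0.121 CPM in the 5 heart libraries. Lung and brain overlap, and every heart library is below every library of the other tissues. Lung was higher than brain by a log2 fold change of 1.65 ± 0.53 (edgeR BH-adjusted p = 0.0132), with 1 of 4 lung libraries above all brain libraries. Without lung replicate 1 it is 1.28 (p = 0.0585) and without lung replicate 3 it is 1.25 (p = 0.0897). Against heart, lung was higher by 7.5 ± 0.73 (edgeR BH-adjusted p = 1.37e-06, 4 of 4 libraries), and heart was lower than brain by -5.85 ± 0.69 (edgeR BH-adjusted p = 3.5e-06, 5 of 5 libraries).

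S100a9, the other calprotectin subunit, reads 2.74, 13.8, 26.0, 13.0 and 12.3 CPM in brain, 54.5, 41.8, 105.1 and 15.4 CPM in lung and 0.511, 0.391, 0.236, 0.45 and 0.645 CPM in heart at 0 hr. All but 1 of the lung libraries lie above all brain libraries, and heart lies below both. The difference of lung from brain was 2.73 ± 0.5 (edgeR BH-adjusted p = 0.000224, 3 of 4 libraries) and of lung from heart 7.53 ± 0.65 (edgeR BH-adjusted p = 4.8e-07, 4 of 4 libraries).

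Among the other transcripts at 0 hr, Retnlg (a secreted resistin-like protein) ranges from 0.228 to 1.8 CPM in brain, from 3.02 to 9.3 CPM in lung and from 0 to 0.0403 CPM in heart. The lung and brain groups do not overlap, and the difference was 3.25 ± 0.53 (edgeR BH-adjusted p = 9.11e-05, 4 of 4 libraries). Ngp goes the other way between brain and lung, at 1.37, 4.99, 6.14, 3.15 and 0.898 CPM in brain and 3.0, 0.467, 0.484 and 2.54 CPM in lung, with overlap and no call (-0.94, edgeR BH-adjusted p = 0.276). In heart 4 of 5 libraries have no Ngp count and the other has 2. Mmp9 was not called between lung and brain (0.28, edgeR BH-adjusted p = 0.7). Mmp8 and Camp have no count in any 0 hr heart library, so lung is at least 35.2-fold above heart for Mmp8 and at least 117.2-fold for Camp. Where a group has 1 to 3 counts, here and below, the fold is a ratio of pooled counts, and its interval covers counting error only and not the spread between libraries. The fold of lung over heart was 155.2 for Retnlg (95% counting interval 52.7 to 755.8), 43.8 for Ngp (11.7 to 368.5) and 124.8 for Cxcr2 (21.9 to 4975.8).

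By count, lung was higher than brain at 0 hr in 7 of the 9 tested transcripts, against 26.4% of all genes tested in that comparison. The median log2 fold change was 2.07 over the tested transcripts and -0.42 over all genes. Lung was higher than heart in 9 of 9, against 29.9% of all genes, with medians of 7.5 (5.81 with transcripts at 0 counts in a group set at their bound) and -0.09. Heart was higher than brain in 0 of 9 by edgeR, with 0 at unadjusted p < 0.05 and 0 by DESeq2 or limma-voom, against 22.8% of all genes. All 9 were lower in heart than in brain with each of the 3 tools, against 5675 of 17730 genes by edgeR, with a median of -4.8 (-4.62 at the bounds) against -0.09. Leaving out 1 library at a time gave 5 to 7 for lung over brain and 9 to 10 for lung over heart.

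**Figure D2:**
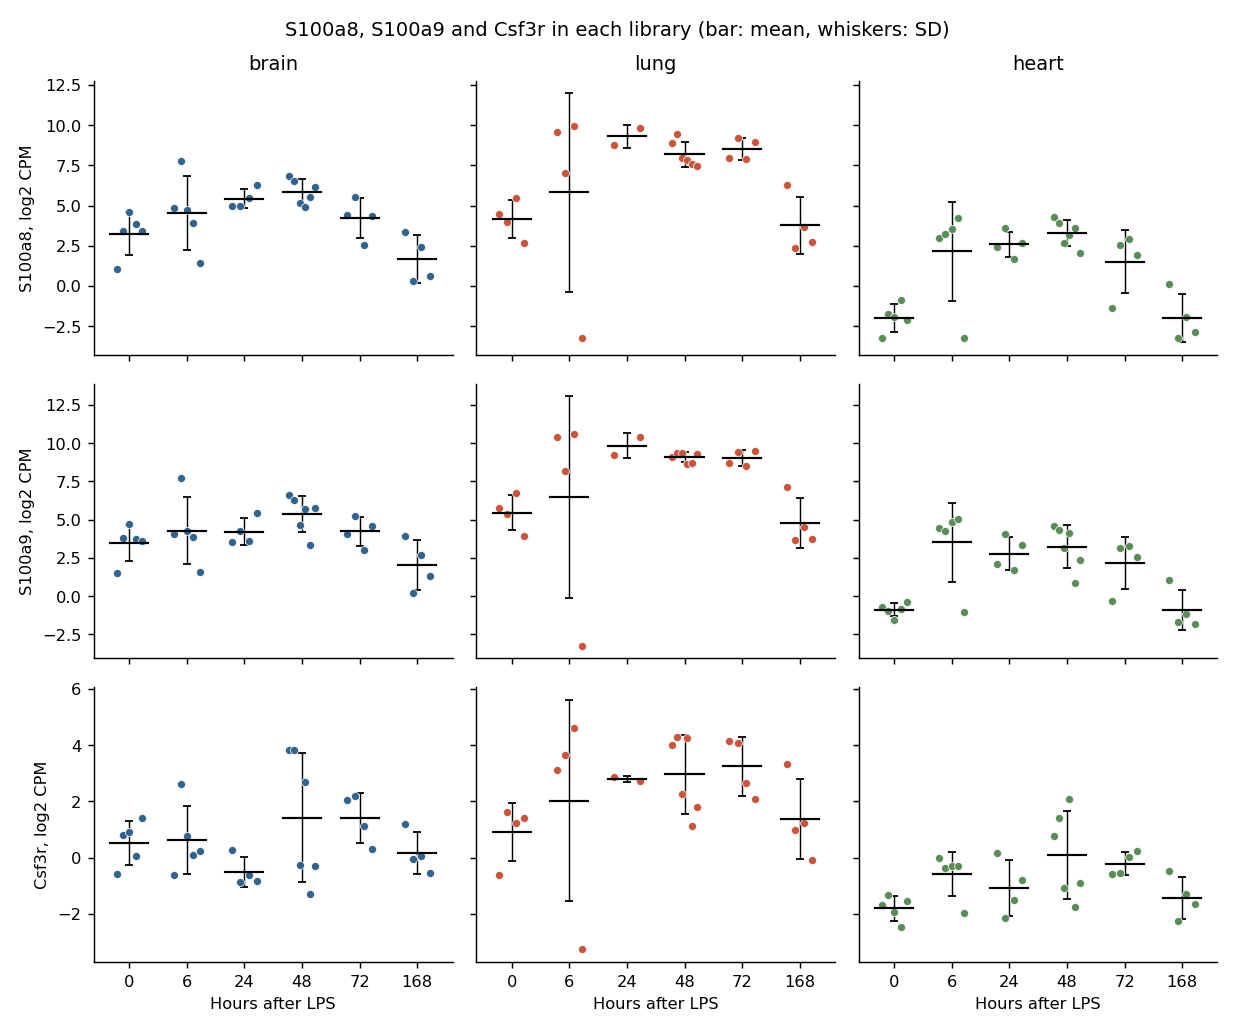
S100a8, S100a9 and Csf3r in each kept library over time (log2 CPM), with bars at the mean and whiskers of 1 SD.

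After LPS, S100a8 in lung reads 751.6, 127.8, 996.7 and 0 CPM at 6 hr and 443.3 and 892.5 CPM at 24 hr. At 48 hr the lowest, median and highest of 6 lung libraries are 173.0, 237.5 and 685.7 CPM, and at 72 hr the values are 249.5, 582.8, 233.6 and 497.2 CPM. Every lung library from 6 to 72 hr is above all 0 hr lung libraries except the 6 hr replicate 4, which has no count and is the shallowest library. The log2 fold change at 6 hr was 3.82 ± 0.93 (edgeR BH-adjusted p = 0.0164, 3 of 4 libraries). At 24 hr it was 6.0 ± 1.05 (edgeR BH-adjusted p = 0.00329, 2 of 2), at 48 hr 4.42 ± 0.88 (edgeR BH-adjusted p = 0.0105, 6 of 6) and at 72 hr 4.62 ± 0.92 (edgeR BH-adjusted p = 0.0186, 4 of 4). Over the alternative settings the 6 hr value ran from 3.41 to 5.04 and was called in 16 of 18. The settings without a call leave out the 0 hr lung library replicate 2 (3.51, p = 0.0663) or replicate 3 (3.98, p = 0.0698). Without either of these the 48 hr call is lost too (edgeR BH-adjusted p = 0.067 and 0.0763). The 72 hr call is lost without the 0 hr replicates 2, 3 or 4 or the 72 hr replicates 3 or 5 (edgeR BH-adjusted p = 0.0576 to 0.121).

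Heart starts from lower levels. S100a8 there reads 7.82, 9.4, 11.8, 18.5 and 0 CPM at 6 hr and 5.13, 12.0, 3.08 and 6.33 CPM at 24 hr, where the library at 0 is replicate 5 named above. At 48 hr the lowest, median and highest are 4.08, 10.5 and 19.0 CPM, and at 72 hr the values are 0.284, 5.85, 7.31 and 3.63 CPM. All heart libraries from 6 to 48 hr except 6 hr replicate 5 lie above all 0 hr libraries, and at 72 hr replicate 1 falls inside the 0 hr range. The changes were 5.72 ± 1.02 at 6 hr (edgeR BH-adjusted p = 0.000217, 4 of 5 libraries), 5.68 ± 1.04 at 24 hr (edgeR BH-adjusted p = 0.0019, 4 of 4) and 6.17 ± 1.01 at 48 hr (edgeR BH-adjusted p = 0.00101, 6 of 6). At 72 hr the change was 4.78 ± 1.03 (edgeR BH-adjusted p = 0.0404, 3 of 4). The calls at 6, 24 and 48 hr held in every alternative setting that was run, 18 of 18, 16 of 16 and 12 of 12. Settings at 48 hr include none that leaves out a single 48 hr library. The 72 hr call held in 6 of 17 and was lost without any of the 0 hr replicates 1 to 5 or the 72 hr replicates 2, 3 or 5, at p = 0.104 to 0.194.

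In brain S100a8 reads 28.8, 220.6, 26.6, 14.9 and 2.55 CPM at 6 hr and 31.8, 31.8, 43.4 and 78.4 CPM at 24 hr. At 48 hr the lowest, median and highest are 29.7, 57.9 and 115.2 CPM, and at 72 hr the values are 21.2, 47.0, 5.81 and 20.4 CPM. The 6 hr and 72 hr groups overlap the 0 hr group, and all libraries at 24 and 48 hr lie above it. No call was made at 6 hr (1.83, edgeR BH-adjusted p = 0.16) or at 24 hr (2.44 ± 0.81, edgeR BH-adjusted p = 0.0518, 4 of 4 above), and 48 hr was called (2.54 ± 0.72, edgeR BH-adjusted p = 0.0212, 6 of 6). Without the 6 hr replicate 6 the 6 hr change is 2.25 (p = 0.0292). The 24 hr change is 2.96 (p = 0.0411) without the 24 hr replicate 2, and the 48 hr change is 2.33 (p = 0.0629) without the 0 hr replicate 1. The high 6 hr library, replicate 2, comes by its file name from the same mouse as the lung library at 751.6 CPM and the heart library at 9.4 CPM.

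S100a9 follows S100a8 in lung, with 1345.7, 287.0, 1545.9 and 0 CPM at 6 hr and 604.5 and 1359.0 CPM at 24 hr. Those libraries are above all 0 hr lung libraries except the 6 hr replicate 4. Its changes in lung were 3.51 ± 0.91 at 6 hr (edgeR BH-adjusted p = 0.0239, 3 of 4 libraries), 4.91 ± 1.03 at 24 hr (edgeR BH-adjusted p = 0.0187, 2 of 2) and 3.91 ± 0.86 at 48 hr (edgeR BH-adjusted p = 0.0222, 6 of 6). The 24 hr call held in 7 of 14 settings. In heart S100a9 reads 21.6, 19.3, 27.9, 32.8 and 0.381 CPM at 6 hr and 4.1, 16.4, 3.08 and 9.88 CPM at 24 hr, above all 0 hr libraries except the 6 hr replicate 5. The changes there were 5.75 ± 0.93 (edgeR BH-adjusted p = 8.9e-05, 4 of 5) and 5.16 ± 0.95 (edgeR BH-adjusted p = 0.00192, 4 of 4). In brain S100a9 reads 16.2, 213.3, 18.9, 14.2 and 2.85 CPM at 6 hr and 11.6, 18.7, 12.2 and 44.0 CPM at 24 hr, which overlaps 0 hr. It was not called at 24 hr (1.18, edgeR BH-adjusted p = 0.431) or at 48 hr (2.08, edgeR BH-adjusted p = 0.0716).

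The balance of the calprotectin subunits was noticed after the values had been seen and is given as description. The ratio of S100a8 to S100a9 counts in lung is 0.371, 0.407 and 0.431 at 0 hr (lowest, median, highest), 0.445, 0.559 and 0.645 at 6 hr, and 0.657 and 0.733 at 24 hr. In brain it is 0.708, 0.847 and 1.11 at 0 hr, with 1 of 5 libraries above 1, and 1.7, 2.27 and 3.57 at 24 hr, with 4 of 4 above 1. Heart libraries with enough counts give 0.362, 0.454 and 0.564 at 6 hr and 0.641, 0.866 and 1.25 at 24 hr. At 48 hr the brain and heart libraries replicate 6, from the same mouse by file names, have the highest ratios, 4.49 and 6.91. The lung library of that mouse has a ratio of 0.455, below the lung 48 hr median of 0.51.

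**Figure D3:**
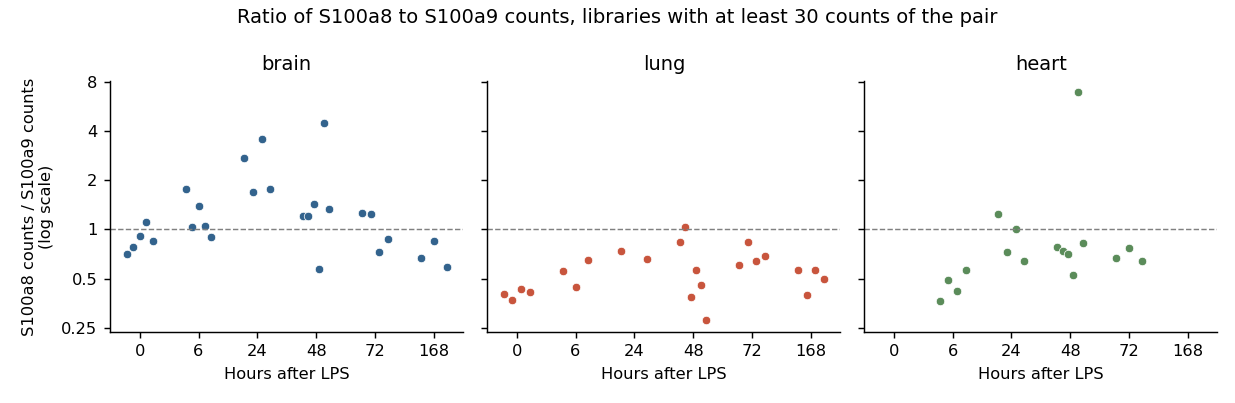
Ratio of S100a8 to S100a9 counts in each library with at least 30 counts of the pair, on a log scale with a dashed line at 1.

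Of the granule transcripts, Ngp (neutrophilic granule protein, a cystatin-like protein of specific granules) reads in lung 128.1, 11.3, 10.9 and 3.52 CPM at 6 hr and 48.1 and 54.2 CPM at 24 hr. The value of 3.52 CPM is a single count. At 48 hr the lowest, median and highest are 26.0, 41.4 and 72.0 CPM. The 3 other 6 hr libraries and all at 24 and 48 hr lie above the 0 hr libraries. The changes were 5.38 ± 0.93 at 6 hr (edgeR BH-adjusted p = 0.0016, 3 of 4 by more than a single count), 5.44 ± 0.92 at 24 hr (edgeR BH-adjusted p = 0.00225, 2 of 2) and 5.62 ± 0.86 at 48 hr (edgeR BH-adjusted p = 0.000522, 6 of 6). The 6 hr and 48 hr calls held in all 18 and all 13 settings that were run. Among the fits that leave out 1 library, those at 48 hr left out 0 hr libraries only. The 6 hr value falls to 3.59 (p = 0.0455) with at least 10% of reads on genes, which leaves replicate 3 alone at 6 hr.

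Heart has Ngp at 0.764, 1.13, 0.553, 1.86 and 0 CPM at 6 hr and 1.94, 1.73, 0.733 and 2.52 CPM at 24 hr, above 0 hr in all but the 6 hr replicate 5. With 2 counts in the whole 0 hr heart group, the fold was 46.1 at 6 hr (95% counting interval 12.4 to 386.5), 86.9 at 24 hr (23.6 to 724.0) and 54.7 at 48 hr (14.9 to 456.0), and edgeR called all 3 (BH-adjusted p = 0.00047, 0.00146 and 0.00261). In brain Ngp reads 1.58, 24.2, 2.79, 1.48 and 1.08 CPM at 6 hr and 4.18, 3.73, 2.17 and 6.16 CPM at 24 hr. Only the 6 hr replicate 2 and, narrowly, the highest 24 hr library exceed all 0 hr libraries. No call was made in brain at 6 hr (0.76, edgeR BH-adjusted p = 0.7) or 24 hr (0.38, edgeR BH-adjusted p = 0.828).

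Mmp9, the gelatinase of the last granules, reads 6.72, 10.9, 13.5 and 0 CPM in lung at 6 hr and 15.4 and 21.6 CPM at 24 hr, where 0 hr values are 0.818, 0.841, 1.29 and 0.9 CPM. Only the 6 hr replicate 4 fails to exceed all 0 hr libraries. Lung changes were 3.55 ± 0.71 at 6 hr (edgeR BH-adjusted p = 0.00467, 3 of 4), 5.02 ± 0.78 at 24 hr (edgeR BH-adjusted p = 0.00101, 2 of 2), 5.27 ± 0.69 at 48 hr (edgeR BH-adjusted p = 0.000175, 6 of 6) and 3.5 ± 0.66 at 72 hr (edgeR BH-adjusted p = 0.00919, 4 of 4). In brain Mmp9 reads 0.228, 2.14, 1.59, 1.02 and 1.39 CPM at 0 hr and 1.29, 7.25, 1.68, 1.13 and 0.688 CPM at 6 hr, with overlap. The brain call came at 48 hr (2.48 ± 0.56, edgeR BH-adjusted p = 0.00595, 5 of 6), and in all 12 settings. None of those settings leaves out a single 48 hr library. Heart was called at 24 hr (2.58 ± 0.58, edgeR BH-adjusted p = 0.00667, 4 of 4) and 48 hr (3.75 ± 0.53, edgeR BH-adjusted p = 0.000598, 6 of 6), and not at 6 hr (1.33, edgeR BH-adjusted p = 0.0533). The 6 hr heart change is 1.57 (p = 0.0173) without replicate 5.

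Mmp8, the neutrophil collagenase, ranges from 0.573 to 3.27 CPM in lung at 0 hr, from 0 to 75.4 CPM at 6 hr with 2 libraries at 0, and from 18.7 to 27.9 CPM at 24 hr. The 6 hr group overlaps 0 hr and the 24 hr group does not. The 6 hr change was 4.1 ± 1.04 (edgeR BH-adjusted p = 0.0205, 2 of 4) and the 24 hr change 4.81 ± 1.05 (edgeR BH-adjusted p = 0.0237, 2 of 2), the latter called in 7 of 14 settings. The 6 hr call is lost without the 0 hr replicate 2 (edgeR BH-adjusted p = 0.0799) or 3 (p = 0.112) or the 6 hr replicate 1 (p = 0.0583). In brain Mmp8 reads 0.114, 0.203, 0.258, 0.354 and 0.0898 CPM at 0 hr and 0.708, 8.62, 0.798, 0.821 and 0.0983 CPM at 6 hr. All but the 6 hr replicate 6 lie above 0 hr. Mmp8 is the only transcript called in brain at 6 hr (3.2 ± 0.92, edgeR BH-adjusted p = 0.0345, 4 of 5), in 10 of 18 settings, and the change is 1.55 (p = 0.26) without replicate 2. At 48 hr the brain change was 4.06 ± 0.92 (edgeR BH-adjusted p = 0.00595, 6 of 6). Brain replicates 1, 2 and 4 hold 4.32, 3.76 and 7.37 CPM of Mmp8 at 48 hr, and replicates 3, 6 and 7 hold 0.526, 1.06 and 1.92 CPM. Monocyte and macrophage markers there sum to 781.3, 649.6 and 436.2 CPM in replicates 1, 2 and 4 and to 70.0 to 135.5 CPM in the others. Heart has no Mmp8 count at 0 hr, and its fold from 6 to 72 hr was at least 19.0, at least 11.2, at least 27.4 and at least 19.4. edgeR called it in heart at 6, 24 and 48 hr (BH-adjusted p = 0.00705, 0.0439 and 0.0254), the 24 hr and 48 hr calls in 6 of 16 and 5 of 12 settings. Heart replicates 1, 2 and 4 hold 1.09, 0.887 and 4.63 CPM of Mmp8 at 48 hr, against 0.123, 0.0639 and 0.234 CPM in replicates 3, 6 and 7. Their monocyte and macrophage sums are 270.7, 472.7 and 251.4 CPM, against 39.2, 20.5 and 39.5 CPM.

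Camp, the cathelicidin precursor, and Ltf, lactoferrin, are described next. In lung Camp ranges from 1.96 to 7.64 CPM at 0 hr, from 0 to 52.0 CPM at 6 hr with 2 of 4 libraries at 0, and from 22.2 to 93.8 CPM at 24 hr. It was not called in lung at 6 hr (2.49, edgeR BH-adjusted p = 0.148) or at 24 hr (3.81, edgeR BH-adjusted p = 0.291). Heart libraries hold at most 0.621 CPM of Camp, at 6 hr, and none at 0 hr, so the fold was at least 10.8 at 6 hr, at least 4.63 at 24 hr and at least 1.96 at 48 hr. Without the count filter edgeR called Camp in heart at 6 hr (5.89, BH-adjusted p = 0.000249) and 24 hr (5.12, BH-adjusted p = 0.012), and not at 48 hr (3.77, BH-adjusted p = 0.147). Ltf ranges from 2.67 to 13.8 CPM in lung at 0 hr, from 0 to 109.4 CPM at 6 hr, and from 29.4 to 39.5 CPM at 24 hr, with no call (2.6, edgeR BH-adjusted p = 0.0634 at 6 hr, and 2.41, edgeR BH-adjusted p = 0.461 at 24 hr). The 6 hr lung change of Ltf is called without the 6 hr replicate 2, 3 or 4 (edgeR BH-adjusted p = 0.0399, 0.0158 and 0.0403). With all 80 libraries the only edgeR call of Ltf was in heart at 72 hr (3.04 ± 0.67, edgeR BH-adjusted p = 0.0477, 3 of 4), in 6 of 17 settings. In brain edgeR called neither at any time. Brain Camp ranges from 0.228 to 4.29 CPM at 0 hr, with a median of 1.73 CPM, and from 0 to 0.617 CPM at 72 hr, with a median of 0.146 CPM. That change was -2.91 ± 0.97 (edgeR BH-adjusted p = 0.102), and DESeq2 called it lower.

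**Figure D4:**
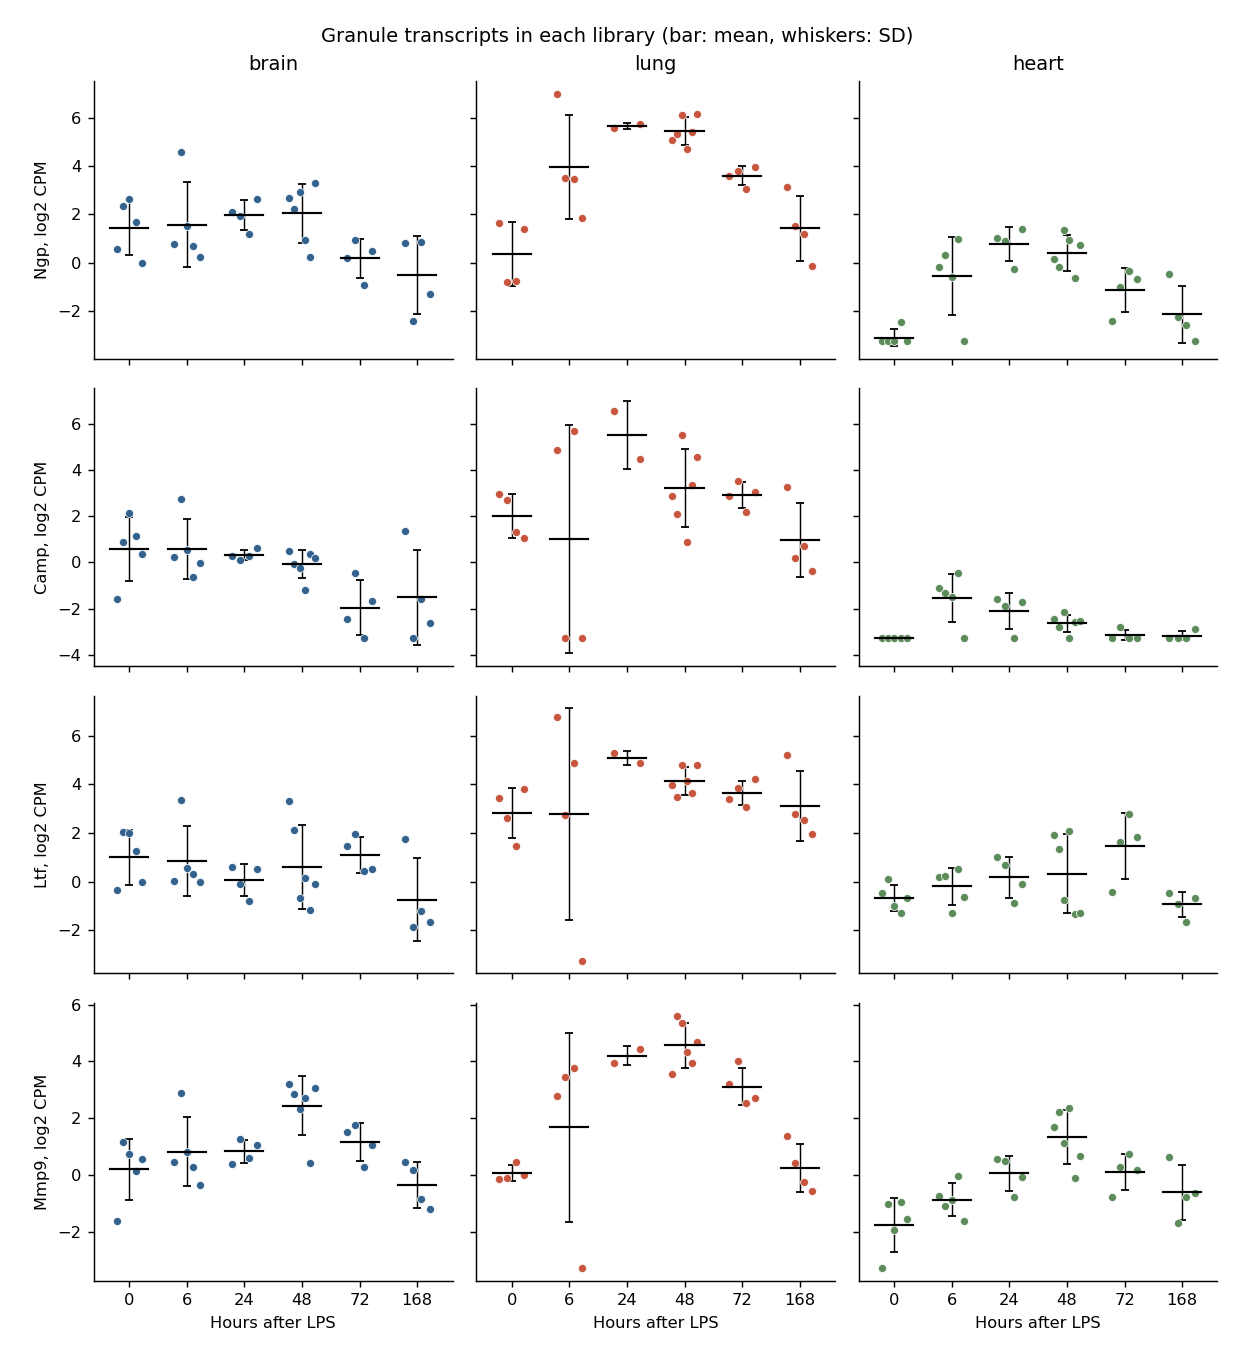
Ngp, Camp, Ltf and Mmp9 in each kept library over time (log2 CPM), with bars at the mean and whiskers of 1 SD.

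The receptors are Csf3r and Cxcr2. In brain, lung and heart at 48 hr each is higher in replicates 1, 2 and 4 than in replicates 3, 6 and 7, as Mmp8 is. Csf3r, the receptor for Csf3, ranges from 0.545 to 2.99 CPM in lung at 0 hr, from 0 to 24.3 CPM at 6 hr and from 6.44 to 7.26 CPM at 24 hr. It was not called in lung at 6 hr (2.52, edgeR BH-adjusted p = 0.0576) and was at 48 hr (3.03 ± 0.7, edgeR BH-adjusted p = 0.0336, 5 of 6). At 6 hr it is called without the 0 hr replicate 4 (edgeR BH-adjusted p = 0.0433) or the 6 hr replicate 1 (p = 0.0327) or 3 (p = 0.0289). The 48 hr call is lost without the 0 hr replicate 1 (p = 0.104), 2 (p = 0.137) or 3 (p = 0.206). In brain the 6 hr and 24 hr values overlap 0 hr, and the 48 hr libraries split. Replicates 1, 2 and 4 hold 14.0, 14.1 and 6.37 CPM, and replicates 3, 6 and 7 hold 0.737, 0.308 and 0.712 CPM. The brain change at 48 hr was 2.02 ± 0.61 (edgeR BH-adjusted p = 0.0292, 3 of 6), called in 6 of 12 settings. The high libraries are those with the lowest Lcn2 and Csf3 at 48 hr. Monocyte and macrophage markers split the same way as Csf3r, at 781.3, 649.6 and 436.2 CPM in the high libraries and from 70.0 to 135.5 CPM in the others. Heart was called at 6 hr (2.26 ± 0.72, edgeR BH-adjusted p = 0.0156, 4 of 5) and at 48 hr (3.12 ± 0.69, edgeR BH-adjusted p = 0.00976, 5 of 6). The 6 hr heart call is lost without the 0 hr replicate 4 (2.02, edgeR BH-adjusted p = 0.0505). In heart at 48 hr replicates 1, 2 and 4 are high again, at 1.6, 2.55 and 4.18 CPM against 0.368, 0.192 and 0.435 CPM, with monocyte and macrophage sums of 270.7, 472.7 and 251.4 CPM against 39.2, 20.5 and 39.5 CPM in replicates 3, 6 and 7. Lung at 48 hr splits between the same replicates. Csf3r there is 15.8, 19.4 and 19.2 CPM against 4.77, 2.05 and 3.39 CPM. Cxcr2 is 9.4, 12.4 and 13.4 CPM against 1.64, 1.44 and 1.7 CPM. Monocyte and macrophage markers in lung sum to 513.6, 2120.2 and 441.3 CPM against 262.6, 203.4 and 242.5 CPM.

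Cxcr2, the receptor for Cxcl1 and related chemokines, ranges from 0.273 to 1.87 CPM in lung at 0 hr, from 0 to 62.4 CPM at 6 hr and from 3.31 to 4.77 CPM at 24 hr. The 6 hr lung change was 3.79 ± 0.92 (edgeR BH-adjusted p = 0.0161, 3 of 4), and it was not called at 24 hr (3.16, edgeR BH-adjusted p = 0.289). The 6 hr value is 3.96 (p = 0.052) without the 0 hr replicate 2, 3.47 (p = 0.089) without the 0 hr replicate 3 and 2.62 (p = 0.104) without the 6 hr replicate 1. With at least 10% of reads on genes, which leaves replicate 3 alone at 6 hr, it is 2.05 (p = 0.456). In brain at 48 hr it reads 6.44, 2.08 and 7.82 CPM in replicates 1, 2 and 4, those with the low Lcn2 and Csf3 and the high monocyte and macrophage sums, and 0.105, 0.0685 and 0.743 CPM in replicates 3, 6 and 7. The change was 4.6 ± 1.13 (edgeR BH-adjusted p = 0.00952, 4 of 6). With 1 count in the whole 0 hr heart group, its fold in heart was 30.4 at 6 hr (95% counting interval 5.09 to 1239.8), 19.7 at 24 hr (3.09 to 823.0) and 52.2 at 48 hr (9.06 to 2088.5). edgeR called all 3 (BH-adjusted p = 0.00569, 0.0301 and 0.00737), the 24 hr call in 8 of 16 settings.

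Retnlg reads 74.3, 23.7, 62.2 and 0 CPM in lung at 6 hr and 80.6 and 42.0 CPM at 24 hr. It stays high at 72 hr, at 124.9, 143.2, 47.4 and 85.1 CPM. All of these except the 6 hr replicate 4 exceed every 0 hr lung library. The changes were 3.01 ± 0.69 at 6 hr (edgeR BH-adjusted p = 0.0106, 3 of 4), 4.22 ± 0.75 at 24 hr (edgeR BH-adjusted p = 0.00345, 2 of 2), 4.6 ± 0.67 at 48 hr (edgeR BH-adjusted p = 0.00027, 6 of 6) and 4.45 ± 0.68 at 72 hr (edgeR BH-adjusted p = 0.000646, 4 of 4). Retnlg is not called in lung at 6 hr without the 0 hr replicate 3 (2.63, edgeR BH-adjusted p = 0.0743). In brain it was called at 48 hr alone (2.66 ± 0.83, edgeR BH-adjusted p = 0.0343, 5 of 6), in 7 of 12 settings. With 3 counts in the 0 hr heart group, the fold in heart was 36.8 at 6 hr (95% counting interval 12.3 to 181.0), 18.9 at 24 hr (6.11 to 94.9), 43.3 at 48 hr (14.6 to 212.1) and 27.8 at 72 hr (9.17 to 137.7), all called by edgeR.

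**Figure D5:**
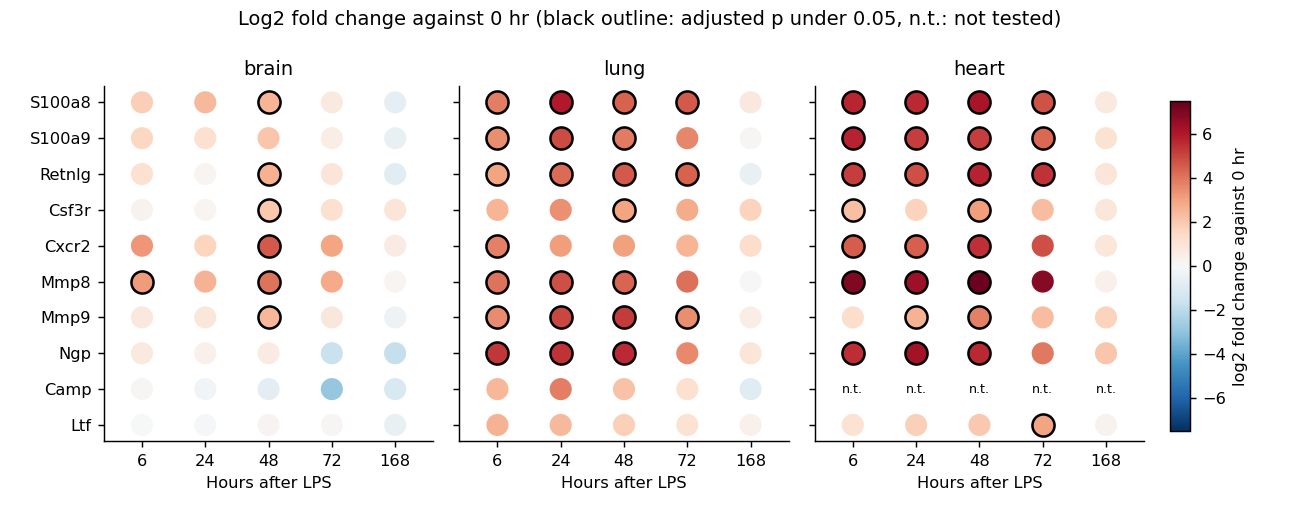
log2 fold change against 0 hr of each transcript by tissue and time, with a black outline where the edgeR BH-adjusted p is below 0.05 and n.t. where not tested.

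By count in lung, edgeR called 7, 6, 7 and 3 of the 10 transcripts higher at 6, 24, 48 and 72 hr, against 2.56%, 0.363%, 0.428% and 0.17% of all genes tested. DESeq2 called 9, 7, 8 and 7 and limma-voom 8, 6, 7 and 5. The medians were 3.53, 4.52, 4.14 and 3.54 over the 10, and -0.42, -0.12, -0.0 and -0.04 over all genes. Leaving out 1 library gave 2 to 9, 3 to 6, 3 to 6 and 1 to 4 in the same order. At 48 hr only 0 hr libraries were left out in turn, and no 48 hr library was. The 6 hr count is 3 without the 0 hr library replicate 2 and 2 without the 0 hr replicate 3, and the 24 hr count is 3 without the 24 hr replicate 1. The 48 hr count is 3 without the 0 hr replicate 2 or 3, and the 72 hr count is 1 without either of these. S100a8, S100a9 and Mmp8 are among the calls lost at 6 and 48 hr in these fits, S100a9, Retnlg and Mmp8 those lost at 24 hr, and S100a8 and Mmp9 those lost at 72 hr. With only libraries that have at least 10% of reads on genes, an alternative added after the data had been seen, the count is 6 at 6 hr and 8 at 48 hr. That alternative leaves 1 library, replicate 3, in the 6 hr lung group, which is assumed to vary like the other groups.

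By count in heart, edgeR called 7, 7, 8 and 4 of the 9 tested transcripts at 6, 24, 48 and 72 hr, against 22.4%, 9.07%, 3.08% and 0.275% of all genes. DESeq2 called 8, 8, 9 and 8 and limma-voom 7, 5, 5 and 0. The medians were 5.21, 4.85, 5.47 and 4.3 over the tested transcripts, and -0.05, -0.04, -0.01 and 0.0 over all genes. Those medians become 4.54, 4.49, 5.19 and 4.28 with transcripts at 0 counts in a group set at their bound. Leaving out 1 library gave 7 to 8, 4 to 6, 7 to 7 and 0 to 7. The 48 hr range comes from leaving out 0 hr libraries only. The 24 hr count is 4 without the 24 hr replicate 2, as Retnlg, Cxcr2 and Mmp8 are lost. The 72 hr count is 0 without any of the 0 hr replicates 1 to 5 or the 72 hr replicates 2, 3 or 5, and 7 without the 72 hr replicate 1. With the low-response libraries left out, also added after the data had been seen, the count is 8 at 6 hr and 8 at 72 hr. The percentages above are of the fit with all kept libraries, and the share of all genes without the low-response libraries is not given here.

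By count in brain, edgeR called 1 of 10 higher at 6 hr and 6 at 48 hr, against 4.21% and 8.11% of all genes. DESeq2 called 0 and 3, and limma-voom 0 and 4. At 24 hr edgeR called 0 higher, with 2 at unadjusted p < 0.05, 1 by DESeq2 and 0 by limma-voom, against 6.52% of all genes. At 72 hr it called 0 higher, with 2 at unadjusted p < 0.05 and 0 by either other tool, against 2.98% of all genes. It called 0 lower at 72 hr, with 1, Camp, at unadjusted p < 0.05, the same 1 by DESeq2 and 0 by limma-voom, against 105 of 19234 genes lower. The medians from 6 to 72 hr were 1.01, 0.65, 2.28 and 0.79, and 0.0, -0.03, 0.02 and -0.04 over all genes. Leaving out 1 library gave 0 to 3 at 6 hr, 0 to 1 at 24 hr and 3 to 6 at 48 hr. For 48 hr only 0 hr libraries were left out, and none of the split 48 hr group. The 6 hr count is 0 without any of the 0 hr replicates 1 to 5 or the 6 hr replicate 2, and 3 without the 6 hr replicate 6. The 24 hr count is 1 without the 24 hr replicate 2, and the 48 hr count is 3 without the 0 hr replicate 1, as S100a8, Retnlg and Csf3r are lost.

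Within a library series, where 0 hr and later libraries share a file-name pattern, the direction was counted as well, a comparison added after the data had been seen. In lung 10 of 10 transcripts are above 0 hr at 24 hr in series 1 (median difference 4.14 log2 CPM) and 10 of 10 at 48 hr in series 1 and in series 2 (3.74 and 3.52). At 6 hr 10 of 10 are above in series 2 (3.14). In series 1 the only 6 hr lung library is replicate 4, the shallowest, where 1 of 10 is above (-4.56). That 1 is Ngp, at a single count. In heart 10 and 9 of 10 are above at 24 hr in series 1 and 2 (2.8 and 1.82), and 10 and 10 at 48 hr (3.6 and 3.22). At 6 hr in heart 10 of 10 are above in series 2 (2.52) and 1 of 10 in series 1, replicate 5. In brain 3 and 7 of 10 are above at 6 hr in series 1 and 2 (-0.6 and 0.54), 9 and 6 at 24 hr (0.64 and 0.15), 8 and 9 at 48 hr (2.6 and 2.64) and 6 and 8 at 72 hr (0.35 and 1.06). At 72 hr 9 and 10 of 10 are above in lung in series 1 and 2 (2.43 and 3.21), and 9 and 10 in heart (2.9 and 1.52). At 168 hr in series 1, 4, 8 and 7 of 10 are above in brain, lung and heart (-0.41, 0.64 and 0.52). Series 4 has no 0 hr library.

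By 168 hr edgeR called no transcript higher in any tissue, against 0%, 0% and 0% of all genes in brain, lung and heart. It called none lower either, against 0, 2 and 0 genes lower. The counts of transcripts higher at unadjusted p < 0.05 were 0, 1 and 1, and DESeq2 and limma-voom called 0. The medians were -0.55, 0.49 and 0.91, and 0.09, -0.0 and -0.0 over all genes. Replicate 1, from the same mouse by file names, has the highest S100a8 of the 168 hr group in each tissue, at 10.1 CPM in brain, 78.8 CPM in lung and 0.983 CPM in heart. The other 168 hr libraries hold 1.11, 5.37 and 1.4 CPM in brain, 4.94, 12.8 and 6.52 CPM in lung and 0, 0.152 and 0.0303 CPM in heart.

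Between 6 and 24 hr no transcript was called higher or lower. In brain 0 of 10 were higher, with 0 at unadjusted p < 0.05 and 0 by DESeq2 or limma-voom, and 0 were lower, against 0.265% of all genes higher and 0.026% lower. In lung 0 of 10 were higher and 0 lower, with 0 unadjusted and 0 by the other tools, against 0.00586% and 0%. In heart 0 of 9 were higher and 0 lower, with 1 higher at unadjusted p < 0.05 and 0 by the other tools, against 1.82% and 2.92%. The medians were -0.34, 1.04 and -0.05 in brain, lung and heart, and -0.05, 0.33 and -0.07 over all genes.

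Whether a change differs between tissues was tested as an interaction. Lung and brain differ at 6 hr in 3 of 10 transcripts by edgeR, against 13.3% of all genes: Mmp9 (3.14 ± 0.79, BH-adjusted p = 0.005), Csf3r (2.77 ± 0.99, BH-adjusted p = 0.0492) and Ngp (4.69 ± 1.14, BH-adjusted p = 0.00384). Without the low-response libraries the count is 2, as Csf3r is lost (2.64, p = 0.0606). Lung and heart differ at 6 hr in Mmp9 alone (2.72 ± 0.86, edgeR BH-adjusted p = 0.0195), against 18.1% of all genes. With only libraries that have at least 10% of reads on genes, these counts of 3 and 1 become 0 and 0, but the 6 hr lung group is then the single library replicate 3. Heart and brain differ at 6 hr in 0, with 5 at unadjusted p < 0.05, against 0.636% of all genes. S100a9 comes nearest there (3.93 ± 1.14, edgeR BH-adjusted p = 0.0918), and the count is 5 without the low-response libraries, namely S100a8, S100a9, Retnlg, Ngp and Camp. The share of all genes called in that fit is not given here, so the 5 are not read as particular to these transcripts.

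At 24 hr lung and brain differ in 2 transcripts, Mmp9 (3.69 ± 0.85, edgeR BH-adjusted p = 0.0038) and Ngp (4.75 ± 1.23, edgeR BH-adjusted p = 0.0128), against 3.85% of all genes. Lung and heart differ in 0, with 1 at unadjusted p < 0.05, against 1.67%. Heart and brain differ in Ngp (5.86 ± 1.43, edgeR BH-adjusted p = 0.0397), against 0.327%, and that count is 0 with only libraries of at least 1000000 counts. For S100a8 at 6 hr, heart against brain gave 3.76 ± 1.19 (edgeR BH-adjusted p = 0.14), which is not called, and 3.61 (p = 0.0195) without the low-response libraries, which is.

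Levels of different genes can be compared per base of exon. At 24 hr in lung the medians are 1880.7 CPM per kb for S100a9, 962.4 for S100a8, 103.3 for Retnlg, 76.5 for Camp, 41.9 for Ngp, 9.98 for Ltf, 9.62 for Mmp8, 5.23 for Mmp9, 1.9 for Csf3r and 1.33 for Cxcr2. At 0 hr in brain the largest are 25.0 for S100a9, 15.5 for S100a8, 2.58 for Ngp and 2.28 for Camp. At 24 hr in brain S100a8 is first, at 54.2, with S100a9 at 29.6. At 6 hr in heart they are 41.4 for S100a9, 13.5 for S100a8 and 1.97 for Retnlg.

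Summed over the 10 transcripts, the median library holds 38.1, 51.8, 61.7, 136.5, 53.8 and 10.9 CPM in brain in order of time, and 97.2, 1539.0, 1907.2, 1143.6, 1123.9 and 42.9 CPM in lung. In heart the medians are 1.8, 35.2, 19.8, 35.4, 20.0 and 1.53 CPM. Lung at 24 hr thus carries more of these transcripts than brain or heart at any time.

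Further lists of neutrophil and cell markers were counted at 24 hr against 0 hr, with calls by edgeR. Beside each count below stand the 6.52%, 0.363% and 9.07% of all genes tested that were higher at 24 hr in brain, lung and heart. Beside counts of lower genes stand the 897 of 19234, 2 of 17058 and 1140 of 16024 genes that were lower there. Of 7 other specific-granule genes, 4 of 6 tested were higher in brain, 2 of 7 in lung and 3 of 5 in heart. The medians were 3.31, 3.3 (2.68 with genes at 0 counts in a group set at their bound) and 3.74, against -0.03, -0.12 and -0.04 over all genes. Lcn2 has the largest change of those called. It does not have the highest level in brain at 0 hr, where the 7 genes sum to 462.9 to 728.1 CPM. Lcn2 reads 7.05, 24.9 and 45.1 CPM in brain at 0 hr (lowest, median, highest) and 12204.2, 24876.6 and 29571.5 CPM at 24 hr. Its change was 8.98 ± 1.06 in brain (edgeR BH-adjusted p = 3.18e-05, 4 of 4 libraries), 8.88 ± 1.23 in heart (edgeR BH-adjusted p = 0.000585, 4 of 4) and 4.89 ± 1.02 in lung (edgeR BH-adjusted p = 0.0179, 2 of 2). Lcn2 in lung is not called without the 0 hr replicates 1, 3 or 4 or either 24 hr library. In the 24 hr heart libraries Lcn2 is at least 8484.2 CPM where S100a8 is at most 12.0 CPM.

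Primary granule genes (Mpo, Elane and 3 others) were counted as well: 0 of 2 tested were higher in brain and 0 of 2 in lung, and none was tested in heart. In lung the 2 tested genes have a median of 4.01 at 24 hr, and 1 of them was called higher at 6 hr, with a median of 4.63. The primary granule genes sum to at most 2.51 CPM in any brain library and at most 46.9 CPM in lung, at 6 hr. Other neutrophil surface genes were higher in 7 of 12 in brain with 1 lower, 5 of 13 in lung and 9 of 11 in heart, with medians of 3.19, 4.58 and 4.24. Clec4e in brain reads 0 to 0.0394 CPM at 0 hr and 0.986 to 4.09 CPM at 24 hr. Il1r2 in lung goes from 0 to 1.26 CPM at 0 hr to 104.2 and 212.4 CPM at 24 hr (7.78 ± 1.11, edgeR BH-adjusted p = 0.000312, 2 of 2). Fpr2 in heart has no count at 0 hr and a 24 hr fold of at least 51.0. These are genes with large changes. The neutrophil surface gene Ly6g has medians at 0 and 24 hr of 0.0787 and 0.128 CPM in brain. In heart they are 0 and 0.0166 CPM, and all of these are near the floor. Lung has at most 0.273 CPM of Ly6g at 0 hr and 0.908 and 7.22 CPM at 24 hr.

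Other cytosolic and secreted neutrophil genes were higher in 5 of 17 in brain with 1 lower, 9 of 18 in lung and 9 of 14 in heart. The medians were 2.29, 4.13 and 3.98, or 2.09, 4.13 and 2.97 with genes at their bound. Stfa2 and Stfa3 have no count in lung at 0 hr and 24 hr folds of at least 71.7 and at least 115.2. Acod1 rose in brain from at most 0.129 CPM at 0 hr to 13.0 to 28.3 CPM at 24 hr (8.08 ± 1.12, edgeR BH-adjusted p = 0.000134, 4 of 4). Granulocyte transcription factors were higher in 1 of 2 in brain, 0 of 4 in lung and 1 of 2 in heart, with Spi1 the gene called in brain (1.96 ± 0.46, edgeR BH-adjusted p = 0.0084) and heart (2.0 ± 0.57, edgeR BH-adjusted p = 0.0243). The heart call is lost without the 0 hr replicate 3 (p = 0.0567) or 4 (p = 0.0557) or the 24 hr replicate 2 (p = 0.0736). Genes for neutrophil ligands and capture were higher in 8 of 8 in brain, 2 of 10 in lung and 9 of 9 in heart, with medians of 7.38, 3.11 and 6.91 (6.02 in heart with genes at their bound). Csf3 goes from at most 0.228 CPM in brain at 0 hr to 608.3, 2264.8 and 4210.6 CPM at 24 hr, and in lung from at most 0.794 CPM to 301.5 and 480.6 CPM. The lung calls are Csf3 and Cxcl2. Csf3 is lost without the 0 hr replicates 1, 3 or 4 or either 24 hr library, and Cxcl2 without the 0 hr replicates 2 or 4 or either 24 hr library.

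Markers of other blood cells were counted at 24 hr in the same way. Monocyte and macrophage genes were higher in 1 of 12 in brain (Cd68, 2.33 ± 0.42, edgeR BH-adjusted p = 0.00124), 0 of 12 in lung and 1 of 12 in heart (Cd68, 1.36 ± 0.36, edgeR BH-adjusted p = 0.0163), with medians of 0.49, 0.8 and -0.88. Their sums in lung are 211.5, 385.4 and 454.1 CPM at 0 hr and 161.4 and 185.5 CPM at 24 hr. They are highest in the 6 hr replicate 1 (2223.9 CPM), which also has the highest 6 hr Ngp, Cxcr2 and Mmp8, and in the 48 hr replicate 2 (2120.2 CPM), which has the highest 48 hr Mmp8 and Mmp9. Platelet genes were higher in 0 of 3, 0 of 7 and 1 of 3 (Pf4 in heart, 2.58 ± 0.59, edgeR BH-adjusted p = 0.00707), with medians of 0.03, 0.31 and 1.1. Platelet sums in heart are 4.77, 5.89 and 9.44 CPM at 0 hr (lowest, median, highest). At 6 hr they are 56.0, 63.6, 100.4 and 52.7 CPM in replicates 1 to 4 and 4.8 CPM in the low-response replicate 5. Erythroid genes were higher in 0 of 6, 0 of 7 and 0 of 5, with medians of -1.4, -0.23 and -0.61. Lymphocyte genes were higher in 0 of 3, 0 of 8 and 0 of 1, with 1 lower in brain (Cd79a, -2.07 ± 0.54, edgeR BH-adjusted p = 0.0158). The Cd79a call is lost without the 0 hr replicate 1 (p = 0.0517) or the 24 hr replicate 2 (p = 0.0764), and the Cd68 call in heart without the 24 hr replicate 1 (p = 0.0615).

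Endothelial genes were higher in 0 of 12 in each tissue at 24 hr, with 1 lower in brain (Tek, -2.09 ± 0.49, edgeR BH-adjusted p = 0.00831) and medians of 0.25, -0.36 and 0.03. At 6 hr 2 were higher and 5 lower in brain, 2 higher and 8 lower in heart, and 2 lower in lung. Over all genes tested at 6 hr, 810 were higher and 428 lower in brain, 3597 and 3257 in heart, and 436 and 388 in lung. In lung the endothelial sums are 18545.9 and 19755.2 CPM at 24 hr, above the 0 hr range, and the lung parenchymal sums are 1890.9 and 2976.7 CPM, below it. Lung parenchymal genes were higher in 0 of 4 in lung, and heart parenchymal genes in 0 of 6 in heart. In heart 2 of the 6 were lower, Actc1 (-1.94 ± 0.41, edgeR BH-adjusted p = 0.00404) and Pln (-1.79 ± 0.39, edgeR BH-adjusted p = 0.00549).

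Genes other than the 10 were ordered by how closely their log2 CPM follows the mean of the 10 over the kept libraries of a tissue with at least 1000000 counts, as description. That leaves out the 6 hr lung library replicate 4. In lung (23 libraries) Fyb (r = 0.958), Fcer1g (0.942), Fcgr4 (0.94) and Pirb (0.937) lead, in heart (28) Ifitm1 (0.941), Csf2rb (0.939), Wfdc21 (0.939) and Itgam (0.936), and in brain (28) Chil3 (0.912), Cd177 (0.87), Mcemp1 (0.85) and Wfdc21 (0.839). Ifitm6 is among the first 8 in all 3 tissues, at 0.839 in brain, 0.92 in lung and 0.923 in heart.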

How the data were processed

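Anti-HA ribosome pulldowns from brain, lung and heart were sequenced (TruSeq mRNA). The deposited files hold raw counts per gene, made by the authors with STAR 2.4.2 on mm10 and HTSeq 0.6.1. The annotation release and strand setting are not stated. Runs of the same library were summed, and libraries with under 3% of reads on genes were left out. The members and lists were chosen with earlier results of these data known. Library series was read from the pattern of the file names.

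Tests used edgeR 4.0.16 (quasi-likelihood, TMM, filterByExpr, library series as covariate) in R 4.3.3, with a fit for each tissue, a fit of the 0 hr libraries (17730 genes) and a fit of 18 groups for interactions (22007 genes). DESeq2 1.42.0 and limma-voom (limma 3.58.1) were alternatives, with others listed in the closing section. Each standard error was taken from the F statistic, as the absolute change over its root. log2 CPM values use a prior count of 2. Tables and figures used Python 3.11.15, numpy 2.4.6, pandas 2.3.3, scipy 1.17.1 and matplotlib 3.10.9.

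Checked on simulated data in which 100 genes were changed 4-fold and 100 changed 2-fold, the 24 hr brain fit recovered 98 and 34, with 7 false of 139 calls. The lung fit recovered 64 and 4, with 1 false of 69 calls, and the heart fit 94 and 21, with 7 false of 122. The simulated spread between libraries was a set value (dispersion 0.1), so these counts do not give the recovery in the real fits.

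Lists counted beside the 10 transcripts were neutrophil primary granule, other specific granule, surface, cytosolic and secreted genes, granulocyte transcription factors, neutrophil ligands and capture, and markers of monocytes and macrophages, platelets, erythroid cells, lymphocytes, ECs and the parenchyma of lung and heart. Values of brain tissue-cell markers are not reported here.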

Additional observations from a re-analysis of the deposited data

Results flagged for a closer look

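In groups of 4 to 10 libraries, a library whose gap to the nearest other exceeds the Dixon 95% critical value for its group was marked. Chance marks about 1 in 20 groups, and 14 of 158 were marked. In heart the 6 hr replicate 5 is lowest for S100a8 (0 CPM), S100a9 (0.381 CPM), Retnlg (0 CPM), Csf3r (0.152 CPM) and Mmp8 (0 CPM). The 72 hr heart replicate 1 is lowest for Cxcr2 (0 CPM) and Mmp8 (0 CPM). In lung the 6 hr replicate 4 is lowest for Mmp9 (0 CPM), and the 168 hr replicate 1 is highest for Cxcr2 (3.35 CPM) and Mmp8 (3.56 CPM). The 48 hr brain replicate 6 is lowest for Retnlg (0.206 CPM) and Mmp9 (1.23 CPM), and the 6 hr brain replicate 2 is highest for Cxcr2 (6.68 CPM) and Ltf (10.1 CPM).

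Interaction tests between tissues that passed the threshold are marked as well, as differences of log2 fold change. At 6 hr these are lung against brain for Mmp9 (3.14), Csf3r (2.77) and Ngp (4.69), and lung against heart for Mmp9 (2.72). At 24 hr they are lung against brain for Mmp9 (3.69) and Ngp (4.75), and heart against brain for Ngp (5.86).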

How the results depend on the processing

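Counts of the 10 transcripts called higher were recomputed under 41 alternative fits and 76 fits that leave out 1 library. Of the alternative values 51 moved by over 1.5 times and 353 did not. The 353 include counts of 0 that stayed at 0, as at 168 hr, so they overstate how stable the other counts are. With 1 library left out, the heart count at 72 hr moved in 9 of 9 fits and the brain count at 6 hr in 7 of 10. Alternatives that leave out the low-response libraries, or libraries with under 10% of reads on genes, were chosen after seeing the data. The cause of the moves was not tested. Shares of all genes called in the alternative fits are not given here, so a moved count is not read as particular to the 10 transcripts.

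In brain the 6 hr count of 1 was 0 with DESeq2, 0 with limma-voom, 4 with no filter and 3 without the low-response libraries. The 24 hr count of 0 was 1 with RLE scaling, 1 with DESeq2, 2 with no filter and 1 with all libraries. The 48 hr count of 6 was 3 with DESeq2, and the 72 hr count of 0 was 2 with no filter. In lung the 72 hr count of 3 was 7 with DESeq2, 5 with limma-voom and 6 with no filter. In heart the 48 hr count of 8 was 5 with limma-voom. The 72 hr count of 4 was 8 with DESeq2, 0 with limma-voom, 9 with no filter, 0 with no series covariate and 8 without the low-response libraries.

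The interaction counts at 6 hr for lung against brain and lung against heart were 0 and 0 with at least 10% of reads on genes, where replicate 3 is the only 6 hr lung library and is assumed to vary like the other groups. For heart against brain the count was 5 at 6 hr without the low-response libraries and 0 at 24 hr with at least 1000000 counts.

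Leaving out 1 library gave 0 to 3 in brain at 6 hr, 0 to 1 at 24 hr and 3 to 6 at 48 hr. It gave 2 to 9 in lung at 6 hr, 3 to 6 at 24 hr, 3 to 6 at 48 hr and 1 to 4 at 72 hr. In heart it gave 7 to 8 at 6 hr, 4 to 6 at 24 hr, 7 at 48 hr and 0 to 7 at 72 hr. In all 3 tissues the 48 hr values come from leaving out 0 hr libraries only. No 48 hr library was left out. At 0 hr it gave 5 to 7 for lung over brain and 9 to 10 for lung over heart. Where a lung group at 24 hr is left with 1 library, that library is assumed to vary like the other groups.

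Replicate numbers do not pair libraries across times. With the replicate number as a block, the counts from 6 to 168 hr were 1, 0, 4, 0 and 0 in brain, 7, 0, 6, 2 and 0 in lung and 7, 5, 7, 0 and 0 in heart. The lung count at 24 hr (6 without the block) and the heart count at 72 hr (4) are those that moved by over 1.5 times. The block gave 0 for 24 hr against 6 hr in each tissue, and 6, 9 and 0 at 0 hr for lung over brain, lung over heart and heart over brain. Brain and heart libraries at 0 hr that share a mouse by file names correlate at -0.054 to 0.163, lung and brain libraries at -0.119 to 0.227 and lung and heart libraries at 0.061 to 0.125. The consensus correlation within a mouse is 0.04699. With the mouse as a random block in limma-voom, the 0 hr counts were 6, 9 and 0. The interaction fit does not model shared mice.

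Depth limits lung most, where groups have 2 to 6 libraries and the shallowest has 284457 counts.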
